A study of Mus musculus with 4 samples.

Results

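The genes described here encode the nuclear subunits of the mitochondrial oxidative phosphorylation system, complexes I to V. They were taken by symbol from the probe annotation of the arrays (names beginning with Nduf, Sdh, Uqcr, Cyc1, Cox4 to Cox8 and Atp5). The pattern matched 80 of 27745 gene names, read by 109 of 41174 probes. Of these genes 35 belong to complex I, 4 to complex II, 8 to complex III, 17 to complex IV and 15 to complex V. The remaining match, Cox4nb (now Emc8), names a subunit of an endoplasmic reticulum membrane complex, so it was counted among the 80 and left out of the complexes. Of the 80 genes, 77 were measured in every comparison, and each of these was well above background in all 8 channels. The other 3 (Cox4i2, Cox8b and Cox8c) did not pass the filter on dim probes.

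The samples were mouse embryonic fibroblasts (MEFs) of C57BL/6J mice, whose labels give the genotype as Lats2-/- (KO) or Lats2+/+ (WT). The product of Lats2 is a Hippo pathway kinase. Each genotype was hybridised on 2 arrays with the dyes exchanged, setting RNA of subconfluent cells (48 hours, low density) against RNA of cells grown for 3 to 5 days (high density). Time in culture thus changed together with density. The labels of the source name write the gene as LAT2, and the genotype field was used. A dye swap is a technical repeat, so each genotype and density gave 1 replicate and no test was possible. All spreads given below are between arrays and measure technical error.

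The subunits form the last stage of respiration. Complex I (NADH dehydrogenase) and complex II (succinate dehydrogenase) feed electrons to coenzyme Q, complex III (the cytochrome bc1 complex) passes them to cytochrome c, and complex IV (cytochrome c oxidase) passes them to oxygen. Complexes I, III and IV pump protons, and complex V (ATP synthase) uses the gradient to make ATP. Except in complex II, the catalytic core is surrounded by small accessory subunits, and some subunits of complex IV exist as isoforms of different tissues. Mitochondrial DNA encodes further core subunits, which are not among the genes chosen. The nuclear genes are known targets of the transcription factors NRF1, GABP (also called NRF2), YY1 and ERR-alpha with their PGC-1 coactivators.

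Promoters are shown for the member with the lowest difference of density effects (KO less WT) in complexes I, III, IV and V, as 1 example per complex of the members on which the genotypes differed in the density comparison. The sequences are the 250 bases before the start of each gene in RefSeq (build GRCm38.p6), written in the direction of the gene. Capitals mark matches on either strand to NRF1 (GCATGCGC), GABP (CCGGAAG), YY1 (AAGATGGCG) or ERR (CAAGGTCA), none of which contains another. The lowest member of complex II, Sdhc, had no entry.
Ndufa6 promoter, chr15:82354292-82354541 (-): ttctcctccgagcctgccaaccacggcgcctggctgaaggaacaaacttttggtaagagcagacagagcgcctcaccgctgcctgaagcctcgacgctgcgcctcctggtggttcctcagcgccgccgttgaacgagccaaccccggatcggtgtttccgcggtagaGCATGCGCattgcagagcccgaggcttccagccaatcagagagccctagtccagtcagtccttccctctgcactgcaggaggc
Uqcr11 promoter, chr10:80406822-80407071 (-): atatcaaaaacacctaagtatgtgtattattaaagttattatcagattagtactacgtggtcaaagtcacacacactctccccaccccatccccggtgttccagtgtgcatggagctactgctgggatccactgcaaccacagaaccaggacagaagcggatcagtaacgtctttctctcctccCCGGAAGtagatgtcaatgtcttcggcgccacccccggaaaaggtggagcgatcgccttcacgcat
Cox7a2l promoter, chr17:83514334-83514583 (-): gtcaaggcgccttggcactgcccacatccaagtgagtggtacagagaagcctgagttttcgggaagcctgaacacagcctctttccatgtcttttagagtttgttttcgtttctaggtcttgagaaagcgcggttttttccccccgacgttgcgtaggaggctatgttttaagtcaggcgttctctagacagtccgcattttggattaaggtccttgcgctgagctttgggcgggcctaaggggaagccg
Atp5l promoter, chr9:44920743-44920992 (-): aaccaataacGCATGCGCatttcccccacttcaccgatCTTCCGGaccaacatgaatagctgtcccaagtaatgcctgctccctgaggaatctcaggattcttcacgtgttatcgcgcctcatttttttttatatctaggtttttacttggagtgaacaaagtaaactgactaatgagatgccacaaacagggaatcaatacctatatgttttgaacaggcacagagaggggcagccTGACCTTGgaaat

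Atp5l held an NRF1 match starting 240 bases before the start, a GABP match at 212 and an ERR match at 13. Ndufa6 held an NRF1 match at 83 and Uqcr11 (Uqcr on the arrays) a GABP match at 66, whereas the Cox7a2l window held none of the 4 motifs. Over 300-base windows, which include 50 bases past the start, 29 of the 64 members with an entry held a match (45.3%), compared with 15.1% of all 27025 genes with an entry. The shares were 15.6% against 3.05% for NRF1, 25.0% against 9.93% for GABP, 10.9% against 1.64% for YY1 and 6.25% against 1.76% for ERR. Members with and without a match had like medians in every comparison. The difference of density effects had a median of -0.41 over the 29 members with a match and -0.37 over 34 measured members without. A match is a string of letters and does not show binding.

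The 4 arrays held 43379 features each, with 52.8% to 67.7% of them well above background per channel and 107 to 224 flagged. No feature was saturated. Both WT arrays lay on 1 slide and the KO arrays on 2 other slides, so that slide and scan cannot be told apart from genotype. Lats2 had 4 probes, of which 3 were higher and 1 lower in KO than in WT at either density. The lower probe (mm8, chr14:56676512-56676571) lies upstream of the other 3 on this minus strand gene (chr14:56644080-56645305). The sources used here do not give the deleted part of the mouse gene, and a probe outside it checks nothing. The study tested the knockout at the protein level by western blotting. Since RNA from most probes was opposed to the genotype labels, the terms labelled KO and labelled WT are used. The OXPHOS genes were bright, with 64 of the 80 in the brightest 10% of all genes. A gene is said to have risen or fallen where its mean log2 ratio passed 1.4-fold and both arrays (between genotypes, both dyes) had the same sign. Fewer cells of a type and less RNA per cell cannot be told apart in these cultures.

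The density comparison asked how the subunits changed as cells became crowded. In the cells labelled WT, 17 of the 77 measured members rose and 2 fell at high density. The respective shares of all 14874 genes tested were 23.5% and 17.6%, so the share that rose was near the background and the share that fell was below it. The median log2 ratio of the members was 0.21 (0.23 and 0.21 on the single arrays), compared with 0.06 over all genes and 0.02 over the brightest 10%. With median centring of the arrays in place of loess it was -0.02 and 1 member rose, while the medians of all genes and of the brightest 10% became -0.05 and -0.23. The members' medians then had opposite signs on the single WT arrays (-1.06 on array 2). Under both normalizations the members' WT median was above that of the brightest 10%. With loess, values were above 0 for 54 members (70.1%, compared with 54.8% of all genes). In the cells labelled KO, 4 members rose and 6 fell, compared with 21.5% and 15.2% of 15434 genes. Their median was -0.12, but it was 0.03 on array 1 and -0.25 on array 2, so its sign was not settled. Under median centring it was -0.62, with opposite signs on the arrays (0.59 and -1.79), and the medians of all genes and of the brightest 10% were -0.08 and -0.48. In the main values 15 members were above 0 on both WT arrays and below 0 on both KO arrays (19.5%, compared with 7.92% of all 14172 genes), and 1 member showed the reverse (1.3%, compared with 7.3%). In the same direction on all 4 arrays, 16 members were above 0 (20.8%, compared with 34.2% of all genes) and 13 below (16.9%, compared with 26.9%).

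**Figure D1:**
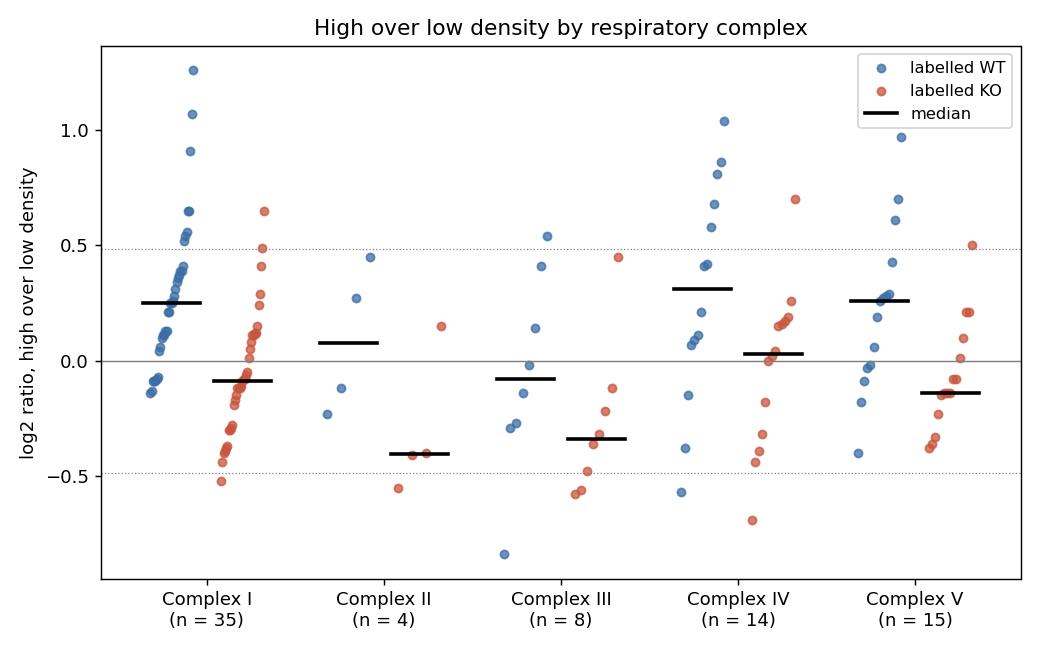
Log2 ratio of high over low density (vertical axis) for the measured subunits of each complex, with each point a gene (mean of 2 arrays), blue for labelled WT and red for labelled KO. Black bars are medians and dotted lines mark 1.4-fold; the WT medians of complexes I, IV and V lie above 0 (0.25, 0.31 and 0.26; -0.02, 0.08 and -0.01 under median centring), and those of complexes II and III under labelled KO are the lowest (-0.40 and -0.34).

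In complex I, 8 of 35 genes rose and 0 fell in the cells labelled WT, with a median of 0.25 (-0.02 under median centring). The share that rose, 22.9%, was close to that of all genes (23.5%). Ndufa13, an accessory subunit also known as GRIM-19 (mm8, chr8:72823192-72823251), rose most. Its log2 intensity was 14.66 and 14.78 at low density and 15.84 and 16.12 at high density in the WT channels, and 15.26 and 15.47 rising to 15.87 and 16.16 in the KO channels. The high density values thus overlapped between genotypes, and the low density values did not. The ratios were 1.26 (2.40-fold; 1.19 and 1.34 on the single arrays) in WT and 0.65 in KO, the latter turning to -0.06 under median centring. Ndufb11, an accessory subunit of the membrane arm, rose by 1.07 in WT and by 0.49 in KO, which turned to -0.15 under median centring. Ndufa6, an accessory subunit that binds the mitochondrial acyl carrier protein, rose by 0.91 in WT (0.85 and 0.97), whereas the KO arrays gave 0.30 and -0.15. Under labelled KO the median of complex I was -0.09, with 0.07 on array 1 and -0.17 on array 2. Ndufs8, a core subunit carrying iron-sulphur clusters, was the lowest there, with -0.34 and -0.69 on the single arrays. Ndufa12 was the lowest in WT with -0.14.

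Complex II subunits did not pass 1.4-fold in the cells labelled WT. Sdhc, a membrane anchor of the complex (mm8, chr1:172966201-172966260), had a log2 intensity of 10.87 and 10.84 in the WT low density channels and 11.24 and 11.37 at high density. In the KO channels it was 11.71 and 11.63 at low density and 11.37 and 11.17 at high density. The genotypes overlapped at high density but not at low density. Its density ratio was 0.45 in WT (0.37 and 0.53) and -0.40 in KO (-0.34 and -0.45). Sdhb, the iron-sulphur subunit, fell by 0.55 in KO and gave -0.23 in WT. Sdhd, the other anchor, gave -0.12 in WT and -0.41 in KO. The catalytic flavoprotein Sdha gave 0.27 and 0.15, but its 2 probes disagreed in sign in KO.

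Complex III had a median of -0.08 in WT and -0.34 in KO. There 7 of its 8 members were below 0 on both KO arrays, compared with 5811 of 15434 genes. Cyc1, which encodes cytochrome c1 (mm8, chr15:76172763-76172822), was the lowest in WT. Its log2 intensity was 13.78 and 14.00 in WT low, 13.05 and 13.05 in WT high, 12.74 and 12.89 in KO low, and 12.21 and 12.47 in KO high channels. The 4 cultures did not overlap, with WT low the highest and KO high the lowest. Cyc1 fell by 0.84 in WT (-0.73 and -0.95), and the KO value of -0.48 fell just short of the rule. Uqcrh, the hinge protein, rose by 0.54 in WT and gave 0.45 in KO. The core protein Uqcrc1 fell by 0.58 in KO (-0.49 and -0.68), and the Rieske protein Uqcrfs1 fell by 0.56. Uqcr gave 0.41 in WT and -0.22 in KO.

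Complex IV had the highest WT median, 0.31 over 14 measured genes (0.08 under median centring). On the single arrays it gave 0.35 and 0.24, and complex I gave 0.24 and 0.28, so their order depended on the array. In complex IV 5 genes were higher (35.7%, compared with 23.5% of all genes) and 1 lower. Under median centring only 1 of all 77 members rose in WT. Cox7a2l rose most (mm8, chr17:83410820-83410879). It is named as a complex IV subunit but is known as a factor that joins complexes III and IV into supercomplexes. Its log2 intensity was 11.76 and 11.86 in WT low and 12.77 and 12.93 in WT high channels, compared with 12.28 and 12.52 in KO low and 12.25 and 12.55 in KO high channels. It thus rose by 1.04 in WT (2.06-fold; 1.01 and 1.08) and gave 0.00 in KO (-0.03 and 0.04). Cox6c rose by 0.81 in WT and gave 0.15 in KO. Cox5a, which holds no catalytic centre but belongs to the conserved nuclear subunits, fell by 0.57 in WT and gave -0.44 in KO. In KO the median was 0.03 (0.07 and -0.01 on the single arrays), with Cox6b1 the lowest (-0.41 and -0.96 on the single arrays) and Cox6a2 the highest (0.64 and 0.76).

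Complex V had a median of 0.26 in WT (-0.01 under median centring), with 3 of 15 genes higher, a share below the 23.5% of all genes, and 0 lower. Atp5e, the epsilon subunit of the F1 head, rose by 0.97 in WT and by 0.50 in KO (0.60 and 0.40; mean -0.15 under median centring). Atp5l, the small membrane subunit g (mm8, chr9:44671628-44671687), rose by 0.70 in WT and gave 0.08 and -0.54 on the KO arrays. Atp5b, the catalytic beta subunit, was the lowest in WT with -0.40, but the arrays differed (-0.08 and -0.71). Its 2 dimmer probes both fell in WT, with -0.64 and -0.87 for one and -0.70 and -0.60 for the other. Atp5d was the lowest in KO with -0.38. The KO median of complex V was -0.14, with 0.14 on array 1 and -0.31 on array 2.

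**Figure D2:**
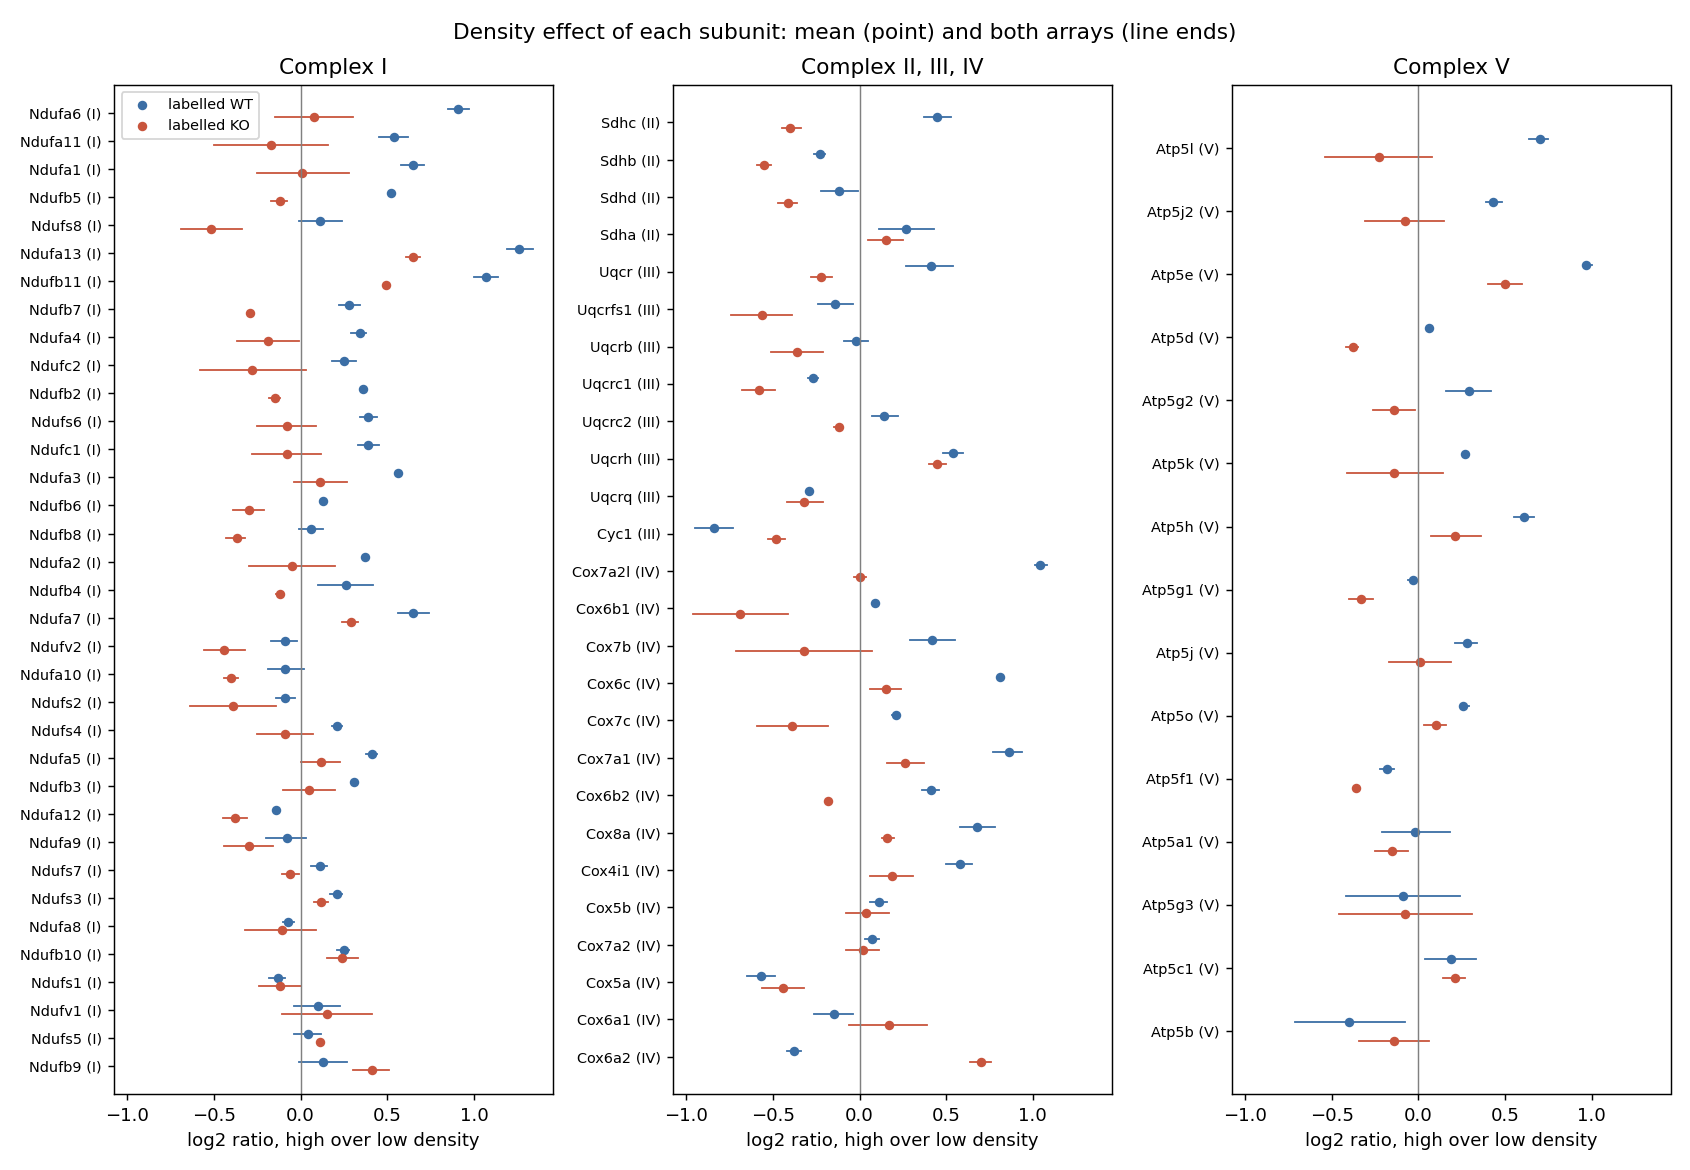
Log2 ratio of high over low density (horizontal axis) for every measured subunit, labelled WT in blue and labelled KO in red, with points for the mean and line ends for the 2 arrays. Within each complex genes are ordered by KO minus WT, from the lowest at the top (Ndufa6, Sdhc, Uqcr, Cox7a2l and Atp5l) to the highest at the bottom.

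The KO minus WT difference in density effects asked whether the response depended on genotype. It was below 0 for 66 of 77 members and below 0 in both dye orientations for 61, compared with 6857 and 5772 of all 14172 genes. By the 1.4-fold rule 23 members were lower and 1 was higher, compared with 15.9% and 15.5% of all 14172 genes. The median was -0.35 (-0.29 and -0.43 in the dye orientations), while the medians of all genes and of the brightest 10% were 0.02 and 0.03. Under median centring it was -0.59, with -0.18 over the brightest 10%, and 1 member was higher and 49 were lower. The count rested on array choice, since 16 members passed in either direction without replicate 2 and 35 without replicate 1. Medians were below 0 in each complex, at -0.38, -0.31, -0.29, -0.55 and -0.30 for complexes I to V. Complex IV had 8 of 14 genes lower, complex I 11 of 35, complex V 2 of 15, and complexes II and III 1 each. The lowest member of each complex, from I to V, was Ndufa6 (-0.55 and -1.12 in the dye orientations), Sdhc (-0.71 and -0.99), Uqcr (-0.55 and -0.70), Cox7a2l (-1.04 in both) and Atp5l (-0.68 and -1.18). The highest of each was Ndufb9 (0.27), Sdha (-0.12), Cyc1 (0.36), Cox6a2 (1.08) and Atp5b (0.26). Past 2-fold were Cox7a2l and Cox6a2 alone, compared with 9.53% of all genes. In the density effects themselves 3 members passed 2-fold in WT (Ndufa13, Ndufb11 and Cox7a2l) and 0 in KO, compared with 15.5% and 11.0%.

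The genotype comparison at low density set the labelled KO against the labelled WT cells before crowding. Here 25 members were higher and 2 lower in labelled KO, compared with 20.7% and 22.0% of 15256 genes. The median was 0.31 (0.30 and 0.32 in the dyes), compared with 0.03 over all genes and -0.03 over the brightest 10%. Values were above 0 for 62 members (80.5%, compared with 51.9% of all genes). By complex the medians were 0.31, 0.09, 0.22, 0.50 and 0.28 for I to V. At high density 4 members were higher and 4 lower, compared with 19.2% and 20.2% of 15620 genes (3 and 9 members under median centring, 7 and 3 under median scaling of the channels), with a median of 0.00 that was 0.09 in one dye and -0.10 in the other. The medians of the complexes at high density were -0.08, -0.24, -0.16, 0.06 and 0.11. The sign depended on the dye orientation in complexes I (0.01 and -0.10) and V (0.18 and -0.03). In complexes II (-0.10 and -0.30), III (-0.15 and -0.29) and IV (0.20 and 0.06) the sign held but the size varied. Set against the WT low density culture, the members had medians of 0.21 in WT high, 0.31 in KO low and 0.17 in KO high cultures. The difference of density effects equals the genotype difference at high density less that at low density, so these are views of the same values and not separate evidence. Likewise the WT density effect and the genotype difference at low density share the WT low density channels.

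**Figure D3:**
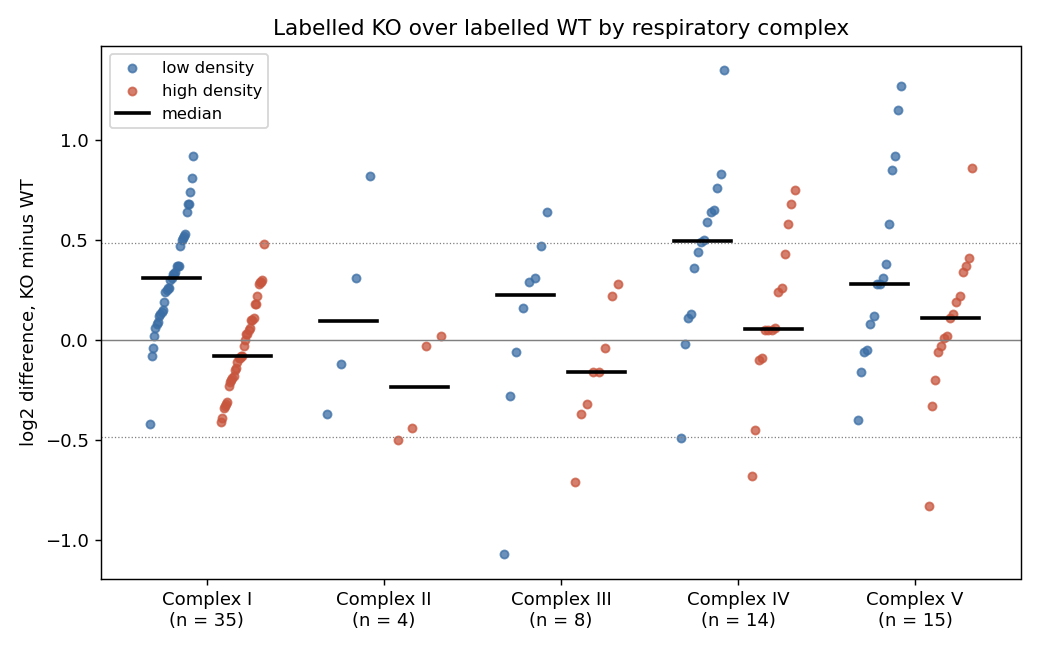
Log2 difference of labelled KO minus labelled WT (vertical axis) for the measured subunits of each complex, blue at low density and red at high density, with each point a gene (mean of both dyes). Black bars are medians and dotted lines mark 1.4-fold; at low density the medians run from 0.09 (complex II) to 0.50 (complex IV), and at high density from -0.24 to 0.11.

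Small membrane subunits of the ATP synthase led the low density contrast together with Cox7c. Cox7c, a small subunit of complex IV (mm8, chr13:86518268-86519145), had log2 intensities of 11.16 and 11.25 in WT low and 12.47 and 12.64 in KO low channels. At high density it was 11.39 and 11.44 in WT and 12.29 and 12.05 in KO. The genotypes did not overlap at either density. Cox7c was higher by 1.35 (2.56-fold) at low and 0.75 at high density. Atp5k, subunit e of complex V (mm8, chr5:108674089-108674344), was 12.16 and 12.24 in WT low and 13.45 and 13.47 in KO low channels. It was higher by 1.27 at low density (2.41-fold) and by 0.86 at high density, where the dyes gave 1.15 and 0.57. Atp5l was higher by 1.15 at low density (1.15 in both dyes) and gave 0.22 at high density. Cyc1 was lower by 1.07 at low and 0.71 at high density. By their brightest probes, these 4 were the only members past 2-fold at low density and 0 were past 2-fold at high density. The shares of all genes were 15.7% and 14.5%. Dimmer probes also passed 2-fold, with 1.15 for Ndufa1 at low density, and -1.08 for Atp5g2 and -1.05 for Atp5j2 at high density.

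Further extremes of each complex were as follows. At low density Ndufa1 was the highest of complex I (0.92), Sdhc of complex II (0.82) and Uqcrfs1 of complex III (0.64). The lowest were Ndufb9 (-0.42), Sdha (-0.37), Cox6a2 (-0.49) and Atp5g2 (-0.40) for complexes I, II, IV and V, although the other Sdha probe gave 0.11. At high density the highest were Ndufb3 (0.48), Sdhd (0.02) and Uqcrq (0.28), while Cox7c and Atp5k led complexes IV and V. Cox6c was lower by 0.68 in labelled KO at high density and gave -0.02 at low density. Atp5g2 was lower by 0.83 at high density (-0.70 and -0.96), Sdha was lower by 0.50 (with -0.12 for its other probe), and Ndufa4, now counted with complex IV, gave -0.41. Cox4nb fell with density in KO by 0.64 and gave -0.45 in WT, and its other probe had the opposite sign in KO and in both genotype comparisons.

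**Figure D4:**
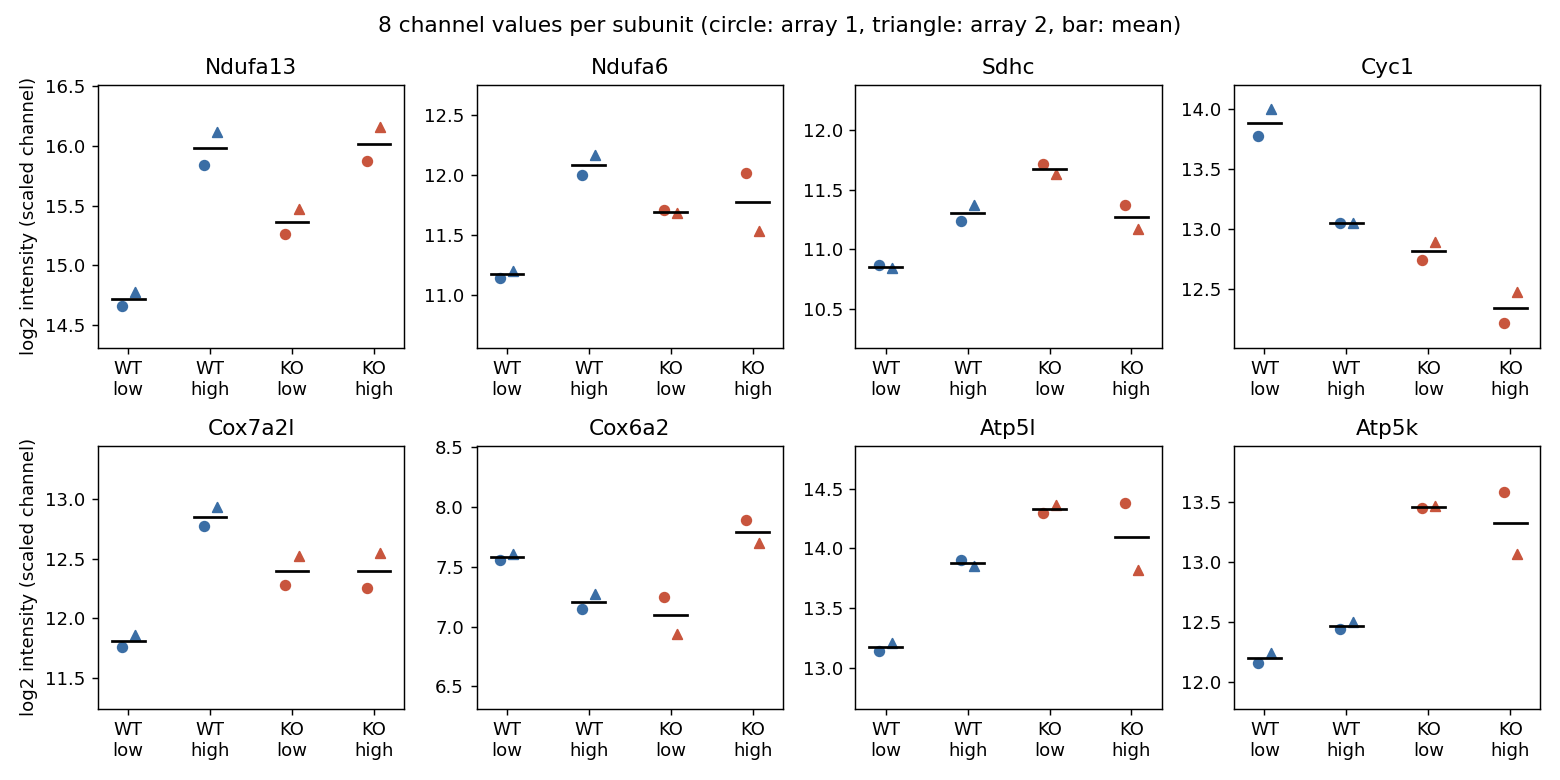
Scaled log2 intensity (vertical axis, range set per gene) of 8 subunits in the 4 cultures, blue for labelled WT and red for labelled KO, with circles for array 1, triangles for array 2 and bars for the mean. Cox7a2l rises with density in WT alone by the 1.4-fold rule (1.04 against 0.00), Cox6a2 crosses between the genotypes, and Cyc1 is highest in WT at low density.

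Subunits were also grouped by structural role within complexes I, III and V. The groups were drawn after the values had been seen and are described only. The 28 accessory subunits of complex I had a median WT density effect of 0.32, and 8 of them rose (28.6%, compared with 23.5% of all genes; 0 under median centring). The 7 core subunits, which carry the flavin and iron-sulphur clusters, had a median of 0.10, with -0.02 and -0.01 on the single arrays, so its sign was not settled, and 0 rose or fell. Under median centring the medians of both groups were 0.06 and -0.17, in the same order. In complex III the 4 large subunits (Uqcrc1, Uqcrc2, Cyc1 and Uqcrfs1) had a median of -0.20 and the 4 small subunits 0.19 (-0.46 and -0.07 under median centring). In complex V the 3 small membrane subunits (Atp5j2, Atp5k and Atp5l) had a median of 0.43, the peripheral stalk 0.27, the F1 head 0.06 and the c-ring -0.03 with 0.16 and 0.00 on the single arrays (0.16, 0.00, -0.20 and -0.29 under median centring). The difference of density effects had a median of -0.43 in the accessory and -0.16 in the core subunits of complex I, and of -0.51 in the small membrane subunits and -0.14 in the F1 head of complex V. In complex III it was -0.29 in the large and -0.21 in the small subunits. The dye orientations gave -0.28 and -0.30 for the large and -0.11 and -0.34 for the small subunits, so the order was not settled. At low density the 3 small membrane subunits were higher in labelled KO, by 0.92 to 1.27. For Atp5j2, however, the 2 probes gave 0.92 and -0.99, so its direction depended on the probe.

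**Figure D5:**
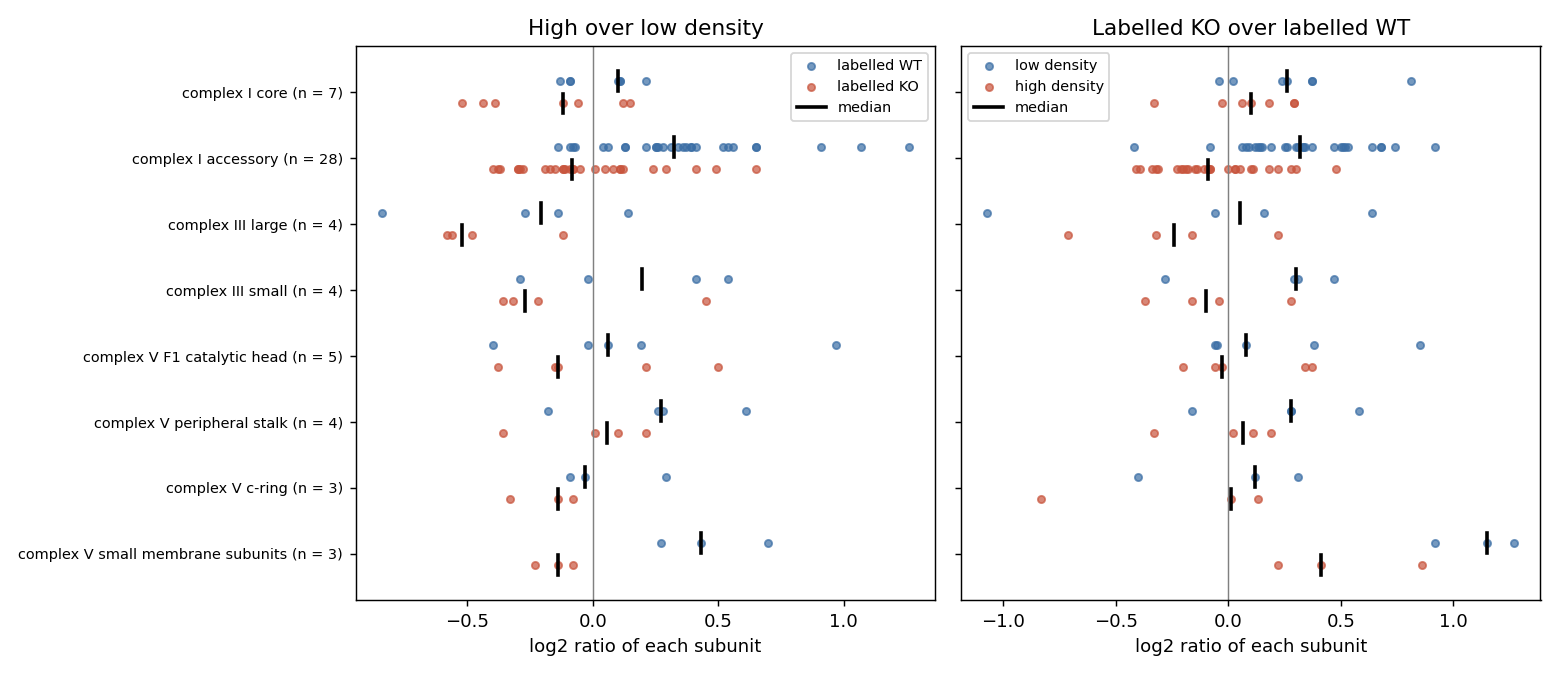
Log2 ratio of each subunit (horizontal axis) by structural role, with high over low density on the left (blue labelled WT, red labelled KO) and labelled KO over labelled WT on the right (blue low density, red high density). Each point is a gene and black bars are medians; in WT the accessory subunits of complex I (median 0.32) lie above its core subunits (0.10; 0.06 and -0.17 under median centring), and at low density the small membrane subunits of complex V lie at 0.92 to 1.27.

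Complex IV has ubiquitous and tissue isoforms, and several of the latter were dim or not well above background. Cox6a2, the heart and skeletal muscle form (mm8, chr7:127996794-127996853), was dim, with log2 intensities of 7.56 and 7.61 in WT low, 7.15 and 7.27 in WT high, 7.25 and 6.94 in KO low and 7.89 and 7.70 in KO high channels. KO high was above the other cultures, and WT high and KO low overlapped. Its density ratio was -0.38 in WT (-0.42 and -0.34) and 0.70 in KO (0.64 and 0.76). It was lower by 0.49 in labelled KO at low density and higher by 0.58 at high density. The ubiquitous form Cox6a1 gave -0.15 in WT and 0.17 in KO, and was higher by 0.68 at high density in labelled KO. Cox7a1, the other muscle form, was dim as well and rose by 0.86 in WT (0.77 and 0.94), with 0.26 in KO. The liver form Cox7a2 gave 0.07 and 0.02. Cox4i1 rose by 0.58 in WT and gave 0.19 in KO, and its lung form Cox4i2 was well above background in 2 channels only. Cox8a rose by 0.68 in WT and gave 0.16 in KO, whereas Cox8b and Cox8c, the muscle and testis forms, were well above background in none of 8 channels. Cox6b1 gave 0.09 in WT and fell by 0.69 in KO, and the testis form Cox6b2 gave 0.41 and -0.18. The 3 genes of the c-ring of complex V, Atp5g1, Atp5g2 and Atp5g3, encode the same mature protein and gave -0.03, 0.29 and -0.09 in WT and -0.33, -0.14 and -0.08 in KO.

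Markers of other cell types were read beside the muscle isoforms. All 6 fibroblast markers were well above background in every channel, but they changed between the cultures. Their differences of density effects were 1.66 for Col1a1, 1.69 for Col1a2, -0.84 for Pdgfrb, -1.36 for Pdgfra and -0.03 for Vim, and Thy1 gave 1.48 and 1.52 in the dye orientations. In WT 4 of the 6 rose and 2 fell (Thy1 -1.18 and Vim -0.51), compared with 23.5% and 17.6% of all genes. Pdgfra was the highest there with 3.05. At low density 3 were higher and 2 lower in labelled KO, compared with 20.7% and 22.0% of all genes. Their median was 0.19, and Pdgfra was again the highest with 4.46. The part of the fibroblast markers in the values of the subunits was not tested. Of 8 skeletal muscle markers, 3 were well above background in all channels and 3 (Myog, Des and Ckm) in none. The summed muscle marker signal was 15.37 and 15.11 in WT low, 13.35 and 12.94 in WT high, 15.43 and 15.03 in KO low and 14.64 and 14.12 in KO high channels (log2), led by Actc1 and Acta1. These had differences of density effects (KO minus WT) of 1.35 and 1.08, whereas Mylpf and Tnnt3, the other measured muscle markers, gave -0.45 and -0.21. Their part in the Cox6a2 and Cox7a1 values was not tested. Of 5 brown fat markers, Ucp1, Cidea and Adipoq were well above background in no channel, while the other 2 changed with density. Fabp4 rose in WT (1.37) and was lower in labelled KO at low density (-2.05), while both KO high density channels lacked a signal well above background. Dio2 rose in both (3.45 in WT and 1.83 in KO). The KO minus WT difference of Dio2, -1.62, had the same sign as the median of the members, and its part in it was not tested. Of 5 macrophage markers 3 were in none, and neither measured marker passed the rule in any comparison.

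Other lists of mitochondrial genes had lower WT medians, from -0.33 to 0.04. Of all genes 23.5% rose and 17.6% fell in WT, and 21.5% rose and 15.2% fell in KO, against which the following counts are to be read. Of 75 genes of mitochondrial ribosomal proteins, 1 rose and 13 fell in WT (median -0.23) and 26 fell in KO (median -0.34), and the difference had a median of -0.14. Under median centring these medians were -0.46, -0.69 and -0.22. Among 20 measured assembly factors 2 rose and 3 fell in WT, and 1 rose and 4 fell in KO, so that the shares that fell were near those of all genes. Surf1, needed for the assembly of complex IV, rose in WT (0.91 on array 1) and gave 0.46 in KO. Tmem70, an assembly factor of the ATP synthase, fell in both (-1.12 in WT and -0.84 in KO). Cox17, the copper chaperone of complex IV, rose by 0.53 in WT and 0.65 in KO. Of 9 measured genes of electron carriers and coenzyme Q synthesis, 1 rose and 4 fell in WT and 4 fell in KO. Cycs, which encodes cytochrome c, fell in both (-1.27 in WT and -0.98 in KO), and Cyc1, the complex III subunit that hands it electrons, gave -0.84 and -0.48. In the citric acid cycle 2 of 18 genes rose and 4 fell in WT, and 3 fell in KO. Idh3a, a subunit of isocitrate dehydrogenase, fell in both (-1.61 in WT and -1.52 in KO), while Pdha1, of pyruvate dehydrogenase, fell in KO and had a difference of -1.10. Among carriers and regulators of the ATP synthase, 1 of 8 rose and 1 fell in WT (Atpif1, the inhibitor, 0.64, and Slc25a5, an ADP/ATP carrier, -0.61), and 2 of 9 fell in KO.

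The regulators of mitochondrial biogenesis moved in different directions. Of 15 measured in WT, 2 rose and 4 fell, and of 16 in KO, 2 rose and 4 fell. Ppargc1b, the coactivator PGC-1 beta, rose in WT (1.27) but fell in KO (-0.81, with -0.82 and -0.80 on the single arrays), a difference of -2.08. On the arrays labelled KO it was higher by 1.66 at low density and gave -0.43 at high density. Esrra, which encodes ERR-alpha, gave 0.26 in WT, fell by 0.50 in KO and was higher by 0.83 at low density. Nrf1 fell by 0.71 in WT (-0.55 and -0.87) and gave 0.04 in KO, and at low density it was lower by 1.02 in labelled KO. Tfam, the mitochondrial transcription factor, gave -0.07 in WT and 0.30 in KO and was lower by 0.84 at low density. Gabpb1 fell by 0.56 in WT with -0.06 in KO, while Gabpa gave 0.01 and 0.13.

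A family outside mitochondria was set beside the subunits. The genes of cytosolic ribosomal proteins, which are also abundant and short messages, were added after the values of the subunits had been seen. Of 74 measured, 22 rose and 0 fell in WT (median 0.38), and 0 rose and 7 fell in KO (median -0.15). With processed signals 5 of them rose in WT (median 0.23) and under median centring 0 did (median 0.11), so the share that rose there (29.7%, compared with 23.5% of all genes) rested on the normalization. The share that fell in KO (9.46%) was below the 15.2% of all genes. The difference was below 0 for all 74, compared with 6857 of the 14172 genes tested. By the rule 46 of them were lower (62.2%, compared with 15.9% of all genes), and the median was -0.56. It was -0.95 with 73 genes lower under median centring, and -0.39 with 23 lower and 69 below 0 with processed signals. At low density their median was 0.18 and at high density -0.37. A negative difference of density effects was thus also found outside the OXPHOS genes.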

How the data were processed

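Arrays with 2 colours of MEFs labelled Lats2 KO or WT were read at low and high density. Per the file headers, the authors extracted spots with Agilent Feature Extraction (10.5.1.1), and the deposited scanner files hold raw mean and background intensity, processed intensity, a log10 ratio and quality flags coded 0 or 1. The deposited series matrix holds the same log10 ratio, rounded and turned to high over low density. Probe positions are those of build mm8. From raw intensity, background was corrected by normexp (offset 50) and arrays were normalized by loess in R 4.3.3 with limma 3.58.1. Ratios were averaged over the dye swap. Single channels were scaled by Aquantile, and genotypes were compared within each dye. A gene was read by its brightest probe. Density comparisons kept a probe if both arrays had it well above background at 1 or both densities, and genotype comparisons if both dyes had it so in 1 or both genotypes. Changed means a mean of at least 1.4-fold (or 2-fold where stated), with equal signs in the arrays or dyes. The SD between the arrays of a pair for a probe was 0.141 in WT and 0.205 in KO (log2), which covers technical error only; the number of arrays limits the precision. With 1 replicate per culture no p-value was computed. Named genes were the highest and lowest member of each complex in each comparison, every member past 2-fold, isoform sets, all Sdh genes, and genes of the other lists past 1.4-fold, from which examples are given. Members, lists and this rule were chosen with earlier results of these data known. All 80 symbols were found in RefSeq names, used for current names and promoters only; 16 members had no promoter entry. Alternatives tried were other normalizations, filters, probes, members and single arrays. Python 3.11.15, numpy 2.4.6 and pandas 2.3.3 were used. Whether probes also read processed pseudogenes, which many of these genes have, was not checked.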

Additional observations from a re-analysis of the deposited data

Results flagged for a closer look

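Some density effects ran in opposite directions in the genotypes, with both WT arrays on one side of 0 and both KO arrays on the other. The difference was not tested in any of these cases, since each genotype had 1 replicate. The median of complex II was above 0 in WT and below 0 in KO, and the median of the differences of its 4 genes was -0.31. This rests on 1 gene, since the WT median was 0.08 (-0.16 under median centring) and Sdhc alone of the 4 genes changed direction. Among named members whose difference also passed 1.4-fold this held for Sdhc (difference -0.85), Cox6b1 (-0.78), Uqcr (-0.62), Cox7c (-0.60), Cox6b2 (-0.58) and Ndufa4 (-0.53), which were above 0 in WT and below 0 in KO. It also held for Ndufb5 (-0.64), Ndufb7 (-0.57) and Ndufb2 (-0.51), which lie outside the rule for named genes, although the other Ndufb2 probe gave 0.68 in KO. The named member Cox6a2 (1.08) showed the reverse. Cox6a2 also passed 1.4-fold in opposite directions between the genotypes at low density (-0.49) and at high density (0.58), which is the same difference of 1.08 seen from the other side.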

How the results depend on the processing

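Density effects, and the size of their difference between genotypes, depended on the normalization within arrays. With median centring in place of loess, the WT median over the members turned from 0.21 to -0.02, and those of complexes I and V to -0.02 and -0.01; those of complexes II, III and IV were -0.16, -0.34 and 0.08, and 1 member passed 1.4-fold. In KO it gave -0.62 over the members (0.59 and -1.79 on the arrays), -0.59, -0.79, -0.87, -0.51 and -0.70 for complexes I to V and 3 members past the rule, and the KO rises of Ndufa13, Ndufb11 and Atp5e turned to -0.06, -0.15 and -0.15. The difference became -0.59 over the members, -0.64, -0.50 and -0.59 for complexes I, III and V, with 50 members past the rule, and complex V at low density became 0.45. Centring moved the median of all genes from 0.06 to -0.05 in WT and from 0.06 to -0.08 in KO, where the share of higher genes among all changed went from 58.6% to 48.4%. At 2-fold, 3 members passed in WT, 0 in KO, 2 in the difference, 4 at low and 0 at high density. With single arrays (without replicate 1 or 2) the KO count was 9 to 17, the KO median of complex V -0.31 to 0.14, and the KO median of the members -0.25 to 0.03. A median counted as moved beyond the SD between the arrays of a probe (0.141 to 0.210). This SD is that of single probes and is wide for a median over many genes. A small median could thus change sign and still count as unmoved. By that measure, and with 1.5 times for counts, 0 of 35 medians and counts in either direction moved with processed signals, an offset of 16, other filters, mean over probes or curated members. By direction, the 2 members that fell in WT became 5 with processed signals and 3 with the offset of 16 or mean over probes. The series matrix (density only), median scaling and quantile normalization (genotype only) also left theirs within it. Apart from median centring, the WT median over the members ranged from 0.21 to 0.23, the difference from -0.43 to -0.29 and the low density genotype median from 0.30 to 0.38. Of genes with several measured probes, 13 of 22 had the same sign in all probes at low density between genotypes and 19 of 22 in the difference. The cause of these changes was not tested. No paired analysis was possible because no result comes from a test, and the replicate numbers name the dye orientation.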
